A study of Mus musculus with 6 samples.

Results

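Spliceosome components and splicing regulators were described in human acute myeloid leukemia (AML) cells taken from mice. The genes were chosen by symbol alone: snRNP proteins (SNRP), LSM1 to LSM8, SF3A, SF3B and U2AF factors, PRPF proteins, SR proteins (SRSF), hnRNP proteins (HNRNP), RBM proteins followed by a digit, and the helicases DDX39A, DDX39B, DDX46 and DHX15. The rule found 121 of the 13892 genes in the deposited table. NSG mice, an immunodeficient strain, carried de novo leukemia driven by NPM1c, a mutant nucleophosmin, after 3 separate transductions of human hematopoietic stem cells. Bone marrow of 3 moribund mice, 1 from each transduction, was sorted. The bulk leukemic population was GFP+ CD33+, and the population called leukemic stem cells (LSC) carried CD123 as well. All 6 libraries therefore came from NPM1c cells, GFP stood in for NPM1c, and no library came from untransduced cells. There were 3 libraries per population, and a shared replicate number marks a shared mouse. CD123 is not mentioned for the bulk gate, so bulk cells could include LSC. The sources used here do not state the ages of the mice.

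Splicing removes introns from newly made RNA. The spliceosome is built for each intron from small nuclear ribonucleoprotein particles (snRNPs): U1 and U2 mark the ends of the intron, and U4, U5 and U6 arrive together as the tri-snRNP. Sm proteins form a ring on U1, U2, U4 and U5 RNA, and LSM proteins form a related ring on U6 RNA. SR proteins mostly favour the use of nearby exons, and hnRNP proteins often oppose it. In myeloid neoplasms SF3B1, SRSF2 and U2AF1 are recurrently mutated, and PRPF8 and DHX15 less often. These data give RNA levels of the factors and do not give splicing outcomes or mutations.

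Libraries held 10669560 to 14933494 reads, and 10 MTRNR2L rows, which resemble mitochondrial ribosomal RNA, took 27.2% to 70.0% of them. Bulk replicate 1 was the shallowest library outside those rows, with 3423878 reads. The splicing genes had a median of 225 reads in that library and of 422 to 617 in the others, and 1 to 7 of the 121 had fewer than 20 reads in a library. Every library held reads for all 121 except LSC replicate 2, where 2 had none. A count of 3 reads, the limit that a count of 0 allows, equals 0.190 to 0.514 CPM (reads scaled to the authors' normalized library size). IL3RA, which encodes CD123, lay at 1.54 to 2.37 CPM in bulk and 48.0 to 139.5 CPM in LSC. CD33 lay at 4.45 to 13.1 CPM in bulk and at 6.80, 8.05 and 1.17 CPM in LSC replicates 1, 2 and 3. Of 14 plasmacytoid dendritic cell markers 14 were higher in LSC at an adjusted p under 0.05, with a summed level of 2904 to 5152 CPM against 165 to 396 CPM, and SCT had no read in any bulk library. Of 22 G2/M genes 10 were lower in LSC and 18 with the mouse as a block, with a summed level of 1249 to 1978 CPM against 4639 to 9042 CPM. Summed neutrophil granule genes stood at 1002 to 3935 CPM in LSC and 4272 to 9401 CPM in bulk. Summed erythroid genes stood at 63.7 to 269 CPM against 223 to 992 CPM. Summed monocyte genes stood at 82.0 to 376 CPM against 1007 to 1127 CPM. High genes weigh most in such sums: LYZ, MPO and VCAN had bulk means of 3660, 1106 and 766 CPM. Of 15 granule genes 0 were lower without the block and 8 with it, while DEFA3 (0.61) and DEFA4 (0.26) had positive log2 differences. Of 12 erythroid genes 3 were lower without the block and 9 with it, and of 7 monocyte genes 1 and 4. Summed B lineage genes stood at 203 to 309 CPM in LSC and 306 to 1819 CPM in bulk. Of 15 B lineage genes 2 were lower without the block and 8 with it. BLNK was higher with the block, with means of 122 CPM in LSC and 40.3 CPM in bulk. Of all genes tested 1.33% were lower without the block and 7.71% with it, and 2.71% and 8.25% were higher. What part these cell states had in the splicing results was not tested. In sorted bulk RNA, fewer cells of a type and less RNA per cell cannot be told apart.

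Together the 121 splicing genes took nearly the same share of reads in LSC and bulk. Outside the MTRNR2L rows, their share in bulk was 2.80%, 2.62% and 2.11% by replicate. The LSC shares were 2.68%, 2.33% and 2.55%, within the range of bulk. The means were 2.51% ± 0.357 and 2.52% ± 0.178 (SD, n = 3; exact two-sided permutation p = 1, where the smallest possible is 0.1). The median log2 difference, LSC minus bulk, was 0.00 over the 121 genes and 0.00 over all 13755 genes tested, and 61 genes had a positive and 60 a negative difference. Members spread less than the table as a whole. A difference beyond 1 log2 unit in either direction was found for 13 of 121 (10.7%), against 26.9% of all genes tested, and 57.9% lay within 0.5, against 44.8%. Expression level was not matched in this comparison, and 111 of the 121 passed a filter of 5 CPM. What part level had in the smaller spread was not tested.

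Gene by gene, 2 of the 121 were higher in LSC and none was lower at an adjusted p under 0.05 (limma on the deposited log2 CPM, adjusted over 13755 genes). Of all genes tested 2.71% were called higher and 1.33% lower, and the share of members called, 1.65% higher and 0 lower, was not above that background. At an unadjusted p under 0.05, 11 members (9.09%) were higher and 7 (5.79%) lower, against 10.2% and 10.1% of all genes. The mouse number was then used as a block, which the shared animal of each pair allows. With it 10 members (8.26%) were higher and 8 (6.61%) lower, against 8.25% and 7.71% of all genes. Populations did not overlap in 13 members (10.7%) higher and 10 (8.26%) lower in LSC, against 13.2% and 11.9% of all genes. Leaving out 1 mouse moved the blocked counts of members, and also those of all genes. Without mouse 1, 1 member was higher and 1 lower (0.826% each), against 2.81% and 2.5% of all genes. Without mouse 2, 3 members (2.48%) were higher and 0 lower, against 3.23% and 2.15% of all genes. Without mouse 3, 11 members (9.09%) were higher and 17 (14%) lower, against 12.7% and 11.4% of all genes. The members called without mouse 1 were HNRNPA1L2 and HNRNPUL2-BSCL2, and those called without mouse 2 were HNRNPA1L2, U2AF1 and RBM17. Every other blocked call of a member was lost without mouse 1 and also without mouse 2.

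**Figure D1:**
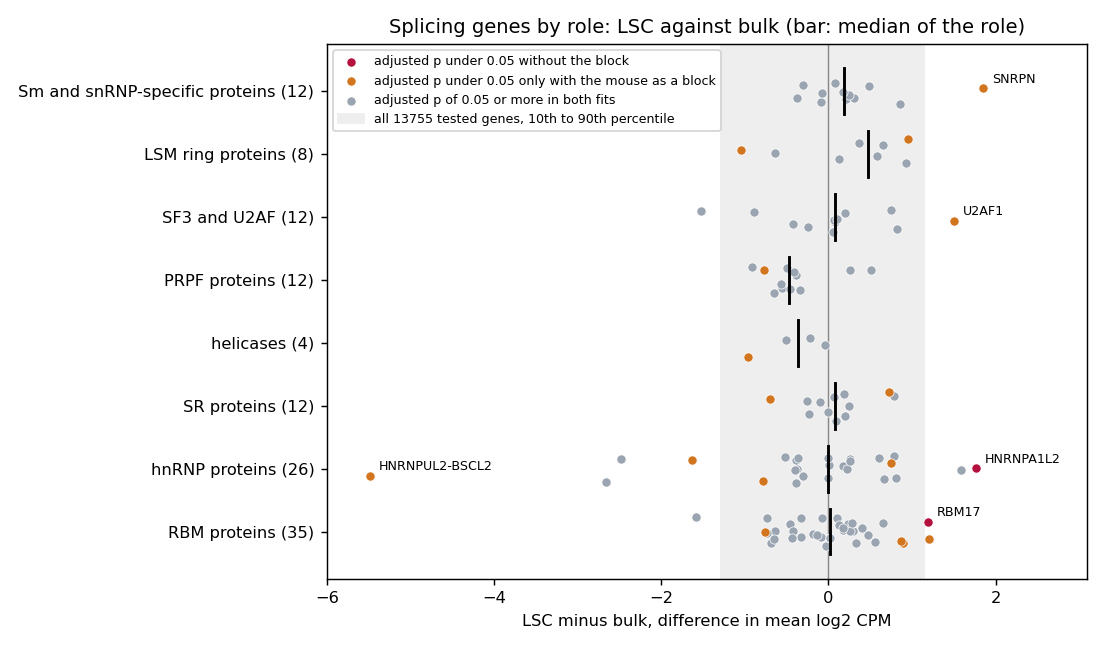
Difference in mean log2 CPM between LSC and bulk (x axis) for each of the 121 splicing genes, in rows by role with the number of genes; black bars are role medians and the grey band spans the 10th to 90th percentile of all 13755 genes tested. The PRPF row lies mostly left of 0 (median -0.48), and RBM17 and HNRNPA1L2 are the 2 genes called without the block.

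RBM17 and HNRNPA1L2 were the 2 called genes. RBM17 encodes SPF45, a factor that acts in the choice of 3' splice sites. It stood at 91.8, 78.9 and 75.7 CPM in bulk and at 227, 143 and 202 CPM in LSC (replicates 1, 2 and 3). All 3 LSC libraries lay above all 3 bulk libraries, and the lowest was from mouse 2. Its means were 82.1 ± 8.48 and 191 ± 42.9 CPM (SD, n = 3), a log2 difference of 1.19 (SE 0.28, limma adjusted p = 0.0483, and 0.00689 with the block). This call lay close to the threshold. It was lost without any 1 library except LSC replicate 2, without both libraries of any mouse, with upper-quartile centring (0.0524), with voom on recovered reads (0.052) and with eBayes without trend (0.131), while the difference stayed between 1.06 and 1.39. The blocked call was lost without mouse 1 (0.0631).

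HNRNPA1L2 is a retrotransposed copy of HNRNPA1, and reads of both can be exchanged. It stood at 22.9, 16.9 and 23.0 CPM in bulk and at 98.8, 46.0 and 76.4 CPM in LSC, with no overlap between populations. Its log2 difference was 1.76 (SE 0.36, limma adjusted p = 0.0297, and 0.00274 with the block). The call was lost without bulk replicate 1 or 2, LSC replicate 1 or 3, any mouse, or the trend, at an adjusted p of up to 0.24, and the difference lay between 1.51 and 2.07 in all settings. HNRNPA1 itself, which binds exon and intron silencers, was lower in LSC in mice 1 and 3. It had 768, 825 and 805 CPM in bulk and 478, 826 and 580 CPM in LSC (adjusted p = 0.477). How reads were divided between them was not tested.

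**Figure D2:**
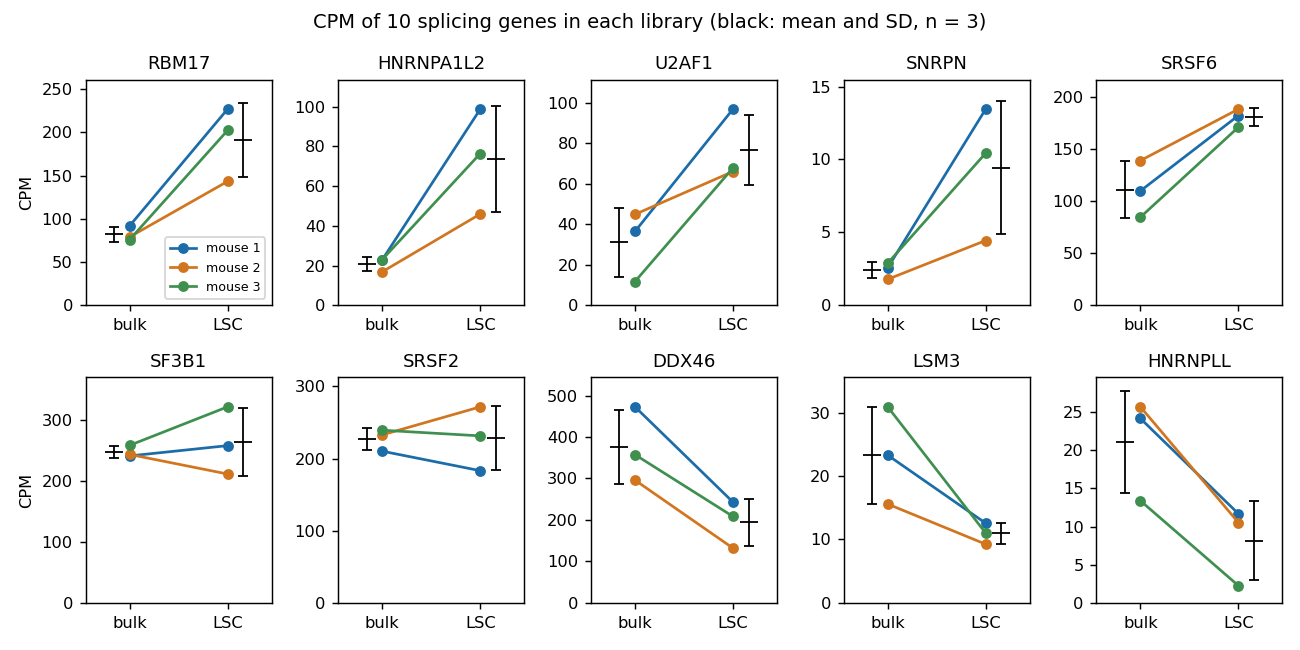
CPM (linear axis from 0) of 10 splicing genes in bulk and LSC libraries, with lines joining the 2 libraries of a mouse and black marks for the mean and SD (n = 3). RBM17, HNRNPA1L2, U2AF1, SNRPN and SRSF6 lie above bulk in all 3 mice, DDX46, LSM3 and HNRNPLL below, and SF3B1 and SRSF2 differ in direction between mice.

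Sm and snRNP-specific proteins, the core of the particles, held 1 gene called with the block and none without it. Of all genes tested 2.71% were called higher and 1.33% lower without the block, and 8.25% and 7.71% with it. At an unadjusted limma p under 0.05 these shares were 10.2% and 10.1% without the block. They are the background for each role below as well. Of 12 members 8 had positive and 4 negative differences, with a median of 0.19, and 0 were called without the block (limma; 1 higher and 0 lower at an unadjusted p under 0.05, 0 with voom). SNRPN, which encodes SmN, a relative of SmB known from brain, had 2.57, 1.78 and 2.88 CPM in bulk. In LSC it had 13.4, 4.44 and 10.4 CPM. All LSC values lay above all bulk values, with mouse 2 lowest in both. The log2 difference was 1.85 (SE 0.55, limma adjusted p = 0.104, and 0.0253 with the block), and 0.91 on the log2(CPM + 5) scale, since the gene is low. SNRPB, which encodes SmB and SmB' and shares sequence with SNRPN, had 3.77, 5.76 and 4.03 CPM in bulk and 8.65, 6.47 and 9.26 CPM in LSC. Its populations did not overlap either, but its difference of 0.85 did not pass (limma adjusted p = 0.3, and 0.185 with the block). The other Sm ring genes, SNRPD1, SNRPD2, SNRPD3, SNRPE, SNRPF and SNRPG, had differences of -0.31 to 0.49. SNRPD3 stood at 48.3 to 63.7 CPM in bulk and 58.7 to 72.3 CPM in LSC. SNRPE, at 14.4 to 15.6 CPM in bulk and 12.8 to 17.5 CPM in LSC, was among the steadiest of all members in bulk. The U1 proteins SNRPA and SNRPC and the U2 proteins SNRPA1 and SNRPB2 had differences of 0.21, 0.08, -0.38 and 0.31. SNRPA1 stood at 21.1 ± 2.49 CPM in bulk and 16.5 ± 3.86 CPM in LSC (limma adjusted p = 0.559).

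LSM genes differed in both directions. Without the block 0 of 8 were called (limma; 1 higher and 1 lower at an unadjusted p under 0.05, 0 with voom), and with the block 1 was higher and 1 lower. LSM8, the subunit that marks the nuclear U6 ring, was higher with the block. It had 30.1, 23.0 and 46.6 CPM in bulk and 46.1, 53.6 and 94.1 CPM in LSC, a difference of 0.95 (SE 0.39, limma adjusted p = 0.212, and 0.0289 with the block). Each mouse was higher in LSC, although the groups overlapped. LSM3, a subunit of both the nuclear and the cytoplasmic ring, had 23.3, 15.6 and 30.9 CPM in bulk and 12.6, 9.26 and 11.0 CPM in LSC. These groups did not overlap, and its difference was -1.04 (SE 0.37, limma adjusted p = 0.162, and 0.0459 with the block). LSM1, which marks the cytoplasmic ring of RNA decay, had 4.45 to 5.76 CPM in bulk and 4.25 to 10.3 CPM in LSC (difference 0.58, adjusted p = 0.531). LSM4 had 7.19, 8.13 and 2.37 CPM in bulk and 8.57, 7.10 and 8.97 CPM in LSC (difference 0.66, adjusted p = 0.524, and 0.10 without bulk replicate 3). LSM2, LSM5, LSM6 and LSM7 had differences of 0.36, 0.13, -0.64 and 0.93, none passing in either fit. LSM7 lay near the detection limit, at 0.171 to 1.19 CPM in bulk and 0.380 to 6.05 CPM in LSC.

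Among the factors that recognise the branch point and the 3' splice site, U2AF1 was higher with the block, and no SF3 subunit passed. U2AF1, the small U2AF subunit that reads the AG at the end of an intron, stood at 36.5, 44.9 and 11.7 CPM in bulk and at 96.9, 66.1 and 67.8 CPM in LSC. The groups did not overlap, and bulk replicate 3 was lowest. Its difference was 1.50 (SE 0.49, limma adjusted p = 0.129, and 0.0231 with the block), and 0.90 without bulk replicate 3. The blocked call of U2AF1 was lost without mouse 1. U2AF2, the large subunit that binds the pyrimidine tract, had 8.56, 8.98 and 4.09 CPM in bulk and 2.81, 4.94 and 3.57 CPM in LSC. It was lower in each mouse, but its difference of -0.88 did not pass (limma adjusted p = 0.357, and 0.205 with the block). U2AF1L4, a relative of U2AF1, had 5.48, 10.9 and 7.29 CPM in bulk and 8.05, 30.0 and 8.68 CPM in LSC (difference 0.75, adjusted p = 0.484).

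SF3B1, the branch-point clamp of the U2 snRNP, had a difference close to 0. It stood at 242, 244 and 259 CPM in bulk and 259, 212 and 322 CPM in LSC. Bulk values were the tightest of all 121 genes, with a range of 0.10 log2 units, and the LSC values spread around them. The difference was 0.07, with a 95% interval of -0.52 to 0.66 (limma adjusted p = 0.904). SF3B2, SF3B4 and SF3A1 had differences of 0.05, 0.10 and 0.08, and SF3B3, SF3A3 and SF3B6 of -0.42, -0.24 and 0.20. SF3B5 and SF3A2 had 0.82 and -1.53 but wide spread, with SF3A2 at only 0.127 to 2.63 CPM and at -0.51 without LSC replicate 2. For the 12 genes the median was 0.08, and 0 were called (limma; 1 higher and 0 lower at an unadjusted p under 0.05, 0 with voom, 1 higher with the block).

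PRPF genes, whose products build the tri-snRNP and the catalytic core, had the lowest median of the roles, at -0.48. Differences were negative for 10 of 12, against 6909 of all 13755 genes tested. In all 3 mice 7 of the 12 were lower, against 25.8% of all genes. Without the block 0 were called, and with it 1, PRPF4B, was lower (limma; 0 at an unadjusted p under 0.05 in either direction, 0 with voom). The counts of 2 positive and 10 negative were the same under the other 3 scalings tried, with medians of -0.53 to -0.42. PRPF8, the scaffold of the catalytic centre, had 165, 201 and 154 CPM in bulk and 117, 132 and 102 CPM in LSC. Its groups did not overlap, yet its difference of -0.56 did not pass (SE 0.26, 95% interval -1.15 to 0.02, limma adjusted p = 0.264, and 0.0743 with the block). PRPF4B, a kinase of the tri-snRNP, stood at 378, 217 and 210.0 CPM in bulk and 241, 111 and 131 CPM in LSC. In both populations mouse 1 was highest, and the difference was -0.77 (limma adjusted p = 0.284, and 0.0269 with the block), and -0.49 without bulk replicate 1. PRPF18, a factor of the second catalytic step, had 26.9, 14.5 and 13.2 CPM in bulk and 13.4, 7.99 and 7.07 CPM in LSC (difference -0.92, adjusted p = 0.269, and 0.0663 with the block). PRPF38A had a difference of -0.56, and PRPF38B, PRPF39, PRPF3, PRPF31 and PRPF6 of -0.50 to -0.35. Positive values were those of PRPF4, a U4/U6 protein, at 0.51, and PRPF19, a ubiquitin ligase of the catalytic complex, at 0.25.

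All 4 helicases had negative differences, and 1 passed with the block. DDX46, the helicase that prepares the U2 snRNP for the branch point, stood at 473, 296 and 357 CPM in bulk and at 243, 132 and 208 CPM in LSC. No LSC library reached the lowest bulk library. The difference was -0.97 (SE 0.32, limma adjusted p = 0.133, and 0.0107 with the block). DHX15, which takes spent spliceosomes apart, had 119.5, 107 and 116 CPM in bulk and 90.7, 101 and 103 CPM in LSC. The groups did not overlap, but the difference was small, at -0.22 (95% interval -0.78 to 0.34, limma adjusted p = 0.66, and 0.487 with the block). DDX39B, which acts in U2 recruitment and RNA export, had 24.2 to 41.7 CPM in bulk and 21.4 to 28.3 CPM in LSC (difference -0.51, adjusted p = 0.427). DDX39A, its close relative, had a difference of -0.04, and this value turned positive when values were scaled to reads outside the MTRNR2L rows, where 3 of 4 helicases were negative.

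SR proteins had mostly small differences. Of 12 genes 9 lay within 0.5 log2 units, and the median was 0.08, with 0 called without the block (limma; 1 higher and 0 lower at an unadjusted p under 0.05, 0 with voom). With the block SRSF6 was higher and SRSF11 lower. SRSF2 stood at 210.2, 233 and 239 CPM in bulk and at 183, 272 and 231 CPM in LSC. It was lower in mice 1 and 3 and higher in mouse 2, for a difference of -0.01 with a 95% interval of -0.60 to 0.58 (limma adjusted p = 0.99). SRSF1, the founding SR protein, had 191 to 217 CPM in bulk and 173 to 260.4 CPM in LSC (difference 0.09, 95% interval -0.50 to 0.69). SRSF6 had 109.9, 139 and 84.6 CPM in bulk and a narrow 182, 189 and 171 CPM in LSC. Its groups did not overlap, and the difference was 0.73 (SE 0.28, limma adjusted p = 0.185, and 0.0421 with the block). SRSF11, an SR-related protein, had 390.4, 180.2 and 255 CPM in bulk and 271, 99.7 and 155 CPM in LSC. Each mouse was lower in LSC, mouse 1 was highest in both populations, and the difference was -0.70 (limma adjusted p = 0.38, and 0.036 with the block). It ranged from -1.07 without LSC replicate 1 to -0.35 without LSC replicate 2, and was -0.41 without bulk replicate 1. SRSF3, SRSF4, SRSF5, SRSF7, SRSF8, SRSF9 and SRSF10 had differences of -0.26 to 0.24. SRSF12 was low, at 3.25, 3.47 and 12.6 CPM in bulk and 6.06, 6.85 and 17.7 CPM in LSC, and higher in LSC in each mouse (difference 0.79, adjusted p = 0.527, and 0.171 with the block).

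The hnRNP genes had the widest range, and much of it came from rows that are not ordinary protein-coding genes. Of 26 rows 12 were positive and 14 negative with a median of -0.01, and the sign of that median was positive under quantile normalization (0.07) and when scaled to reads outside the MTRNR2L rows (0.05). Without the block 1 of 26 rows was called (HNRNPA1L2), and with it 2 were higher and 3 lower. Of all genes tested 8.25% were higher and 7.71% lower with the block. HNRNPUL2-BSCL2, a read-through transcript of neighbouring genes, had 68, 154 and 253 reads in bulk and 41, 0 and 6 reads in LSC, or 11.6, 13.0 and 16.2 CPM against 3.03, 0 and 0.438 CPM. All LSC libraries lay below all bulk libraries. Its fitted difference of -5.49 depends on the small prior (SE 1.51, limma adjusted p = 0.0812, and 0.0175 with the block) and was -3.01 on the log2(CPM + 1) scale, where it passed (0.00969), as on the log2(CPM + 5) scale (-1.62). It passed too without LSC replicate 1 (-7.16, 0.0363) and with voom on recovered reads (0.0441), and the difference was -3.52 without LSC replicate 2. HNRNPUL2, the gene it shares exons with, had 98.6, 158 and 98.7 CPM in bulk and 104, 79.1 and 80.8 CPM in LSC (difference -0.40, adjusted p = 0.481), and reads of the 2 rows can be exchanged. HNRNPA1P33, another copy of HNRNPA1, stood at 1.47 to 3.30 CPM in bulk and 0.222 to 0.729 CPM in LSC (difference -2.66, adjusted p = 0.133, and 0.0928 with the block).

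Among ordinary hnRNP genes, HNRNPLL was lower and HNRNPH3 higher with the block. HNRNPLL, which regulates CD45 splicing in lymphocytes, had 24.1, 25.7 and 13.4 CPM in bulk and 11.7, 10.5 and 2.26 CPM in LSC. Mouse 3 was lowest in both populations, and the groups did not overlap. The difference was -1.63 (SE 0.63, limma adjusted p = 0.191, and 0.022 with the block), and -0.87 without LSC replicate 3. HNRNPL, its relative, had 40.1, 31.3 and 21.4 CPM in bulk and 61.0, 36.7 and 64.0 CPM in LSC (difference 0.81, adjusted p = 0.249, and 0.0973 with the block). HNRNPH3 and HNRNPR lie outside the rule for named genes and are given because the block called them. HNRNPH3, a G-run binding protein, had 361, 302 and 197 CPM in bulk and 584, 418 and 419 CPM in LSC (difference 0.75, adjusted p = 0.215, and 0.0326 with the block). HNRNPR stood at 142, 114 and 124 CPM in bulk and at 82.5, 69.0 and 69.7 CPM in LSC, a difference of -0.78 with no overlap (adjusted p = 0.135, and 0.0303 with the block). HNRNPA0 had 27.7, 22.3 and 25.8 CPM in bulk and 46.4, 28.7 and 61.5 CPM in LSC, with no overlap, but its difference of 0.79 did not pass (limma adjusted p = 0.249, and 0.0751 with the block). HNRNPUL1 and the antisense row HNRNPU-AS1 had differences of -0.52 and 0.61 (block adjusted p = 0.161 and 0.0665), and HNRNPAB, HNRNPD, HNRNPDL and HNRNPF of -0.38 to 0.26. HNRNPA2B1 had 1517 to 1728 CPM in bulk and 1421 to 1815 CPM in LSC (difference 0.00), HNRNPC a difference of 0.25, HNRNPM of -0.01, HNRNPA3 of -0.01, HNRNPK of -0.39 and HNRNPU of -0.36. These levels are per read and not per length, so they are not compared between genes.

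The RBM genes, a varied family of RNA-binding proteins, gave 18 positive and 17 negative differences. Beside RBM17, with the block RBM3, RBM34 and RBM47 were higher and RBM41 lower. That is 4 of 35 higher and 1 lower, against 8.25% and 7.71% of all genes tested. RBM3, known as a cold-inducible protein, had 137, 209 and 146 CPM in bulk and 253, 342 and 309 CPM in LSC. All LSC libraries lay above all bulk libraries (difference 0.89, SE 0.28, limma adjusted p = 0.114, and 0.0149 with the block). RBM47 had 8.05, 8.72 and 13.9 CPM in bulk and 25.3, 26.5 and 17.9 CPM in LSC. It differed most in mice 1 and 2, for an average of 1.20 (SE 0.37, limma adjusted p = 0.113, and 0.046 with the block). It was the 1 blocked call lost with voom and the block (0.0521). RBM34 and RBM41, given because the block called them, had differences of 0.87 and -0.76 (block adjusted p = 0.0217 and 0.0454). RBM8A, the exon junction subunit Y14, stood at 50.5 to 55.0 CPM in bulk and 50.5 to 65.6 CPM in LSC (difference 0.18). RBM25, which binds U1, and RBM39, a relative of U2AF2, had differences of -0.42 and 0.23. RBM25 was far higher in mouse 1, at 1259 CPM in bulk and 1119 CPM in LSC against 312 to 600.4 CPM in the other 4 libraries. RBM22, of the catalytic core, had a difference of -0.02. RBM42 had the most negative value, -1.58, on 0.219 to 11.0 CPM. The antisense rows RBM5-AS1 and RBM26-AS1 had differences of 0.33 and 0.66, and their reads cannot be told apart from those of RBM5 and RBM26 unless strand was used.

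Ratios between related genes were compared within each library, since they do not depend on library scaling. Of 21 pairs listed 19 were measured, and in 3 the ratio did not overlap between populations. HNRNPL over HNRNPLL had log2 ratios of 0.73, 0.29 and 0.68 in bulk and 2.38, 1.80 and 4.81 in LSC, a difference of 2.43. RBM5 over RBM10, closely related splicing regulators, had 2.86, 3.06 and 3.17 in bulk and 4.20, 3.96 and 3.65 in LSC, a difference of 0.90. SRSF4 over SRSF6 had -0.22, -0.73 and -0.64 in bulk and -1.27, -1.62 and -1.18 in LSC, a difference of -0.83. In each pair all 3 mice moved in the same direction, which follows from the lack of overlap and adds no support. Exact two-sided permutation p was 0.1 for these 3 pairs, the smallest possible for 3 against 3, and 0.633 after Benjamini-Hochberg adjustment over 19 pairs, so no pair passed. RBM5 alone had a difference of 0.26 and RBM10 of -0.64, neither passing in either fit, and SRSF4 alone had -0.10. SNRPB over SNRPN had lower ratios in LSC in each mouse (-1.19, -1.14 and -0.65) but its groups overlapped, with 0.55, 1.68 and 0.48 in bulk and -0.64, 0.54 and -0.17 in LSC. DDX39A over DDX39B was higher by 0.98, 0.06 and 0.35 in mice 1, 2 and 3. RBM4 over RBM4B differed by only 0.03 to 0.19.

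**Figure D3:**
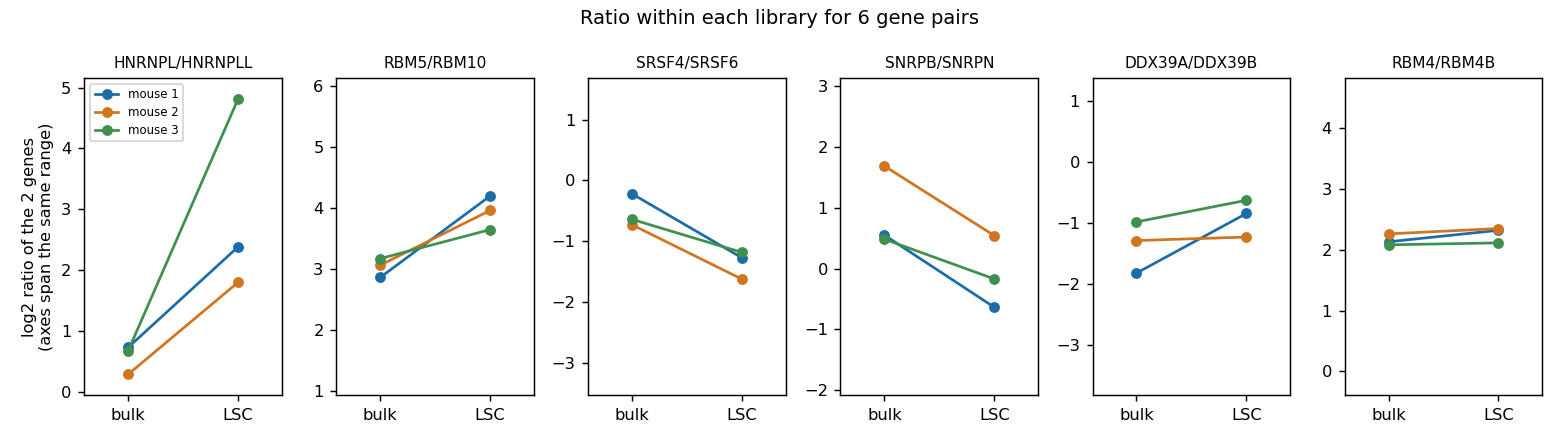
Log2 ratio of 2 related genes within each library for 6 pairs, with lines joining the libraries of a mouse and each y axis spanning the same number of log2 units. HNRNPL/HNRNPLL and RBM5/RBM10 are higher and SRSF4/SRSF6 lower in LSC with no overlap, while RBM4/RBM4B differs by at most 0.19.

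The variation of these genes was split into shares between mice and between populations. Over the 121 genes 40.3% of the summed squares of log2 CPM lay between mice and 33.3% between populations, with 26.4% left over, against 38.2%, 41.6% and 20.1% over all genes tested. These shares are a description and are not adjusted for 3 mice against 2 populations. With more mice than populations, a larger mouse share is expected without any real difference, so the shares do not rank the 2 sources. Each mouse was also a separate transduction, and mouse 1 had the highest MTRNR2L share in each population (70.0% in bulk, 45.6% in LSC). These cannot be told apart from the mouse. Without the 8 rows for gene copies, antisense RNA and read-through, the shares were 46.9% and 25.0%. The mouse share was highest for SR proteins (67.9%) and RBM proteins (59.4%). In SR proteins it came with small totals: the mean summed squares per gene were 0.998, against 5.60 over all genes. The 4 helicases had the highest population share, 57.4%. In 28 of 121 genes (23.1%) LSC were higher in all 3 mice and in 37 (30.6%) lower, against 27.3% and 25.8% of all genes. Median differences over the members were 0.01, -0.19 and 0.12 in mice 1, 2 and 3, against 0.09, 0.01 and -0.03 over all genes tested.

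**Figure D4:**
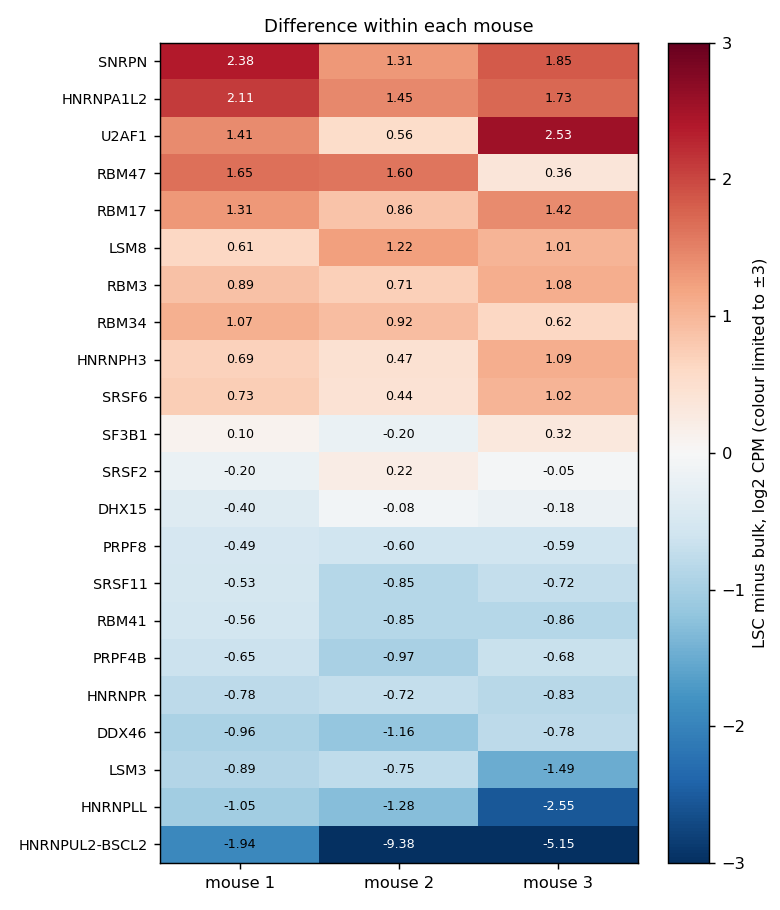
Difference in log2 CPM between LSC and bulk within each mouse (columns) for the members called with or without the block and for SF3B1, SRSF2, U2AF1, PRPF8 and DHX15 (rows, by mean difference); red is higher in LSC, blue lower, and colour stops at 3. U2AF1 ranges from 0.56 in mouse 2 to 2.53 in mouse 3, and RBM47 from 0.36 in mouse 3 to 1.65 in mouse 1.

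**Figure D5:**
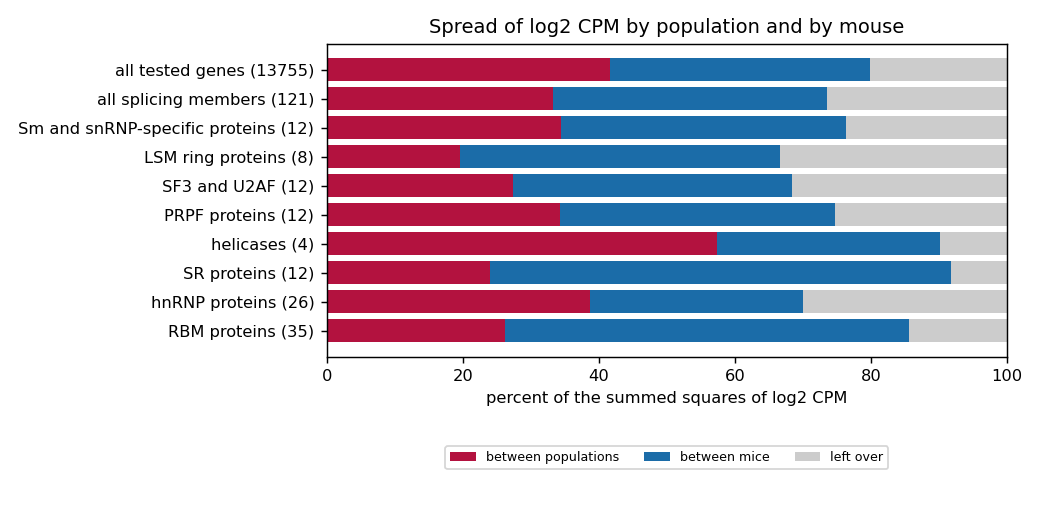
Percent of the summed squares of log2 CPM that lay between populations (red), between mice (blue) or in neither (grey), for all tested genes, all 121 members and each role. SR proteins have the largest mouse share, 67.9%, and the helicases the largest population share, 57.4%.

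Some bulk libraries differed by more than the populations did. HNRNPA1P10, a further copy of HNRNPA1, had 661, 301 and 9.15 CPM in bulk and 847, 151 and 386 CPM in LSC, so bulk replicate 3 stood apart by 6.17 log2 units. HNRNPH2 had 19.5, 9.99 and 2.50 CPM in bulk and 11.5, 0 and 12.5 CPM in LSC, where the 0 allows up to 0.190 CPM. Its near relative HNRNPH1 had 279 to 395 CPM in bulk and 446 to 623 CPM in LSC, with no overlap (difference 0.67, limma adjusted p = 0.215, and 0.0568 with the block). Reads of HNRNPH1 and HNRNPH2 can be exchanged.

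Splicing genes that the naming rule leaves out were taken from 7 lists with 130 genes, of which 127 were in the table and tested. Of these 127 genes 1 was higher and 3 were lower without the block, against 2.71% and 1.33% of all genes. With the block 4 of 127 were higher and 13 of 127 lower, against 8.25% and 7.71% of all genes. Their median difference was -0.23, with 47 positive and 80 negative, against 6846 and 6909 of all 13755 genes tested. The median lay between -0.27 and -0.17 under the other scalings. SRPK1, a kinase that phosphorylates SR proteins, fell from 169.7, 102 and 61.5 CPM in bulk to 43.1, 26.7 and 24.2 CPM in LSC (difference -1.75, SE 0.41, limma adjusted p = 0.0496). KHSRP, a KH-domain regulator of splicing and RNA decay, fell from 34.6 ± 5.93 to 12.3 ± 2.90 CPM (difference -1.50, adjusted p = 0.04). CWC22, which loads the exon junction complex, fell from 66.6 ± 10.1 to 28.7 ± 2.06 CPM (difference -1.21, adjusted p = 0.0468). EIF4A3, the helicase at the centre of that complex, rose from 8.44 ± 1.12 to 26.3 ± 8.52 CPM (difference 1.59, adjusted p = 0.0463). All 4 passed with the block. Calls were lost in 11 of 24 settings for SRPK1 and KHSRP, 13 for CWC22 and 14 for EIF4A3, among them every setting that left out bulk replicate 1 or 2 without the block.

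Of 19 SR-related proteins and SR protein kinases 1 was lower without the block and 6 with it, with a median of -0.37 and 13 negative differences. Of all genes 1.33% were lower without the block and 7.71% with it, and 2.71% and 8.25% were higher. These shares are the background for each list below as well. SRRM1, a coactivator with SR repeats, had 414, 328 and 418 CPM in bulk and 221, 155 and 203 CPM in LSC (difference -1.01, adjusted p = 0.0741, and 0.00763 with the block). In the PRPF19-complex and catalytic step list 1 of 25 was lower, 3 with the block and 1 higher. CWC27, a cyclophilin-like protein, had 85.4, 47.7 and 54.8 CPM in bulk and 42.7, 14.8 and 21.8 CPM in LSC (difference -1.34, adjusted p = 0.126, and 0.00898 with the block). Among tissue and regulatory factors 1 of 26 was lower, and with the block 4 were lower and 1 higher. MBNL3, a muscleblind protein, was lower (difference -1.02, block adjusted p = 0.0378, and -0.65 without bulk replicate 3). QKI, an RNA-binding protein given because it was the 1 higher gene, had a difference of 0.69 (block adjusted p = 0.0397). The exon junction and export list held 1 of 18 higher in both fits. THOC5 of the export complex had 8.83 to 17.6 CPM in bulk and 2.51 to 6.42 CPM in LSC (difference -1.59, adjusted p = 0.112, and 0.0536 with the block). Among other snRNP proteins 0 of 15 passed without the block (limma; 1 higher and 0 lower at an unadjusted p under 0.05, 0 with voom). With it SNRNP70, the U1 protein that contacts U1 RNA, was higher, with 21.2, 29.8 and 9.79 CPM in bulk and 52.4, 45.3 and 25.7 CPM in LSC (block adjusted p = 0.0279). Its difference was 1.10, and 0.65 without bulk replicate 3. USP39 had a difference of -0.88 (block adjusted p = 0.133). In the minor spliceosome (9 genes, led by SNRNP25 at 0.69 and ZMAT5 at -0.67) and in snRNP assembly (15 genes, led by TGS1 at -0.62 and GEMIN5 at -0.56) none passed in either limma fit, none at an unadjusted p under 0.05 without the block and none with voom.

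In the authors' deposited table the lowest false discovery rate among the 121 genes was 0.144, for HNRNPUL2-BSCL2, and 0.0813 among all genes. Its unadjusted p was under 0.05 for 7 of the 121, against 12.4% of all genes: the authors' deposited table lists HNRNPUL2-BSCL2, HNRNPA1L2, HNRNPA1P33, U2AF1, SNRPN, HNRNPLL and RBM17. It rests on the same libraries and is not separate evidence.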

How the data were processed

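RNA of sorted cells was amplified with a NuGEN Ovation kit, per the labels' protocols. RSEM, Bowtie2, edgeR and hg19 appear in the submitters' processing notes, without roles or versions. The organism label is mouse, while symbols and build are human. The deposited sample values are log2 CPM with a small prior, normalized by the authors. The same deposited table gives the authors' comparison per gene, per the file headers: a log2 fold change (bulk minus LSC), the authors' test score, a p-value and its false discovery rate. How the authors removed low genes is not stated in the sources at hand. Values rise in whole steps from a floor of 0.0197 CPM, and the steps gave read numbers that were whole to 0.1 in 100% of cases. CPM in the text are above that floor. Amplified reads carry no molecular identifiers, so limits cover counting error only.

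The test kept 13755 of 13892 genes, those reaching 1 CPM in 3 or more libraries, and all 121 splicing genes were among them. The populations were set against each other on log2 CPM by limma 3.58.1 (R 4.3.3; eBayes with trend, two-sided), with Benjamini-Hochberg adjustment over all tested genes and a threshold of 0.05. The code was tested on simulated data. Fold changes of low genes depend on the prior. Same-numbered libraries share a mouse, and their deviations from group means correlated at 0.33, 0.35 and 0.30, so the number pairs them. Named genes are the 5 recurrently mutated, the 3 with the largest statistic in each role, members past the threshold, 2 per other list, and pairs without overlap. Other members are named, after their values were seen, to describe each role in full. The members and lists were chosen with earlier results of these data known. Alternatives added after seeing the data were voom on recovered reads and the block on 2 mice. No human sequence or coordinate is given, since only a mouse reference was at hand.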

Additional observations from a re-analysis of the deposited data

How the results depend on the processing

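Without the block, 2 splicing members were higher and 0 lower. The higher count was 1 with upper-quartile centring, 0 with eBayes without trend, 1 with voom on recovered reads, 10 with the replicate block and 10 with voom and the block. The lower count was 1 on the log2(CPM + 1) and log2(CPM + 5) scales and with voom, 8 with the replicate block and 10 with voom and the block. Leaving out 1 library or mouse gave 0 to 2 higher and 0 to 1 lower without the block, and 1 to 11 higher and 0 to 17 lower with it. Of the other splicing genes, 1 was higher and 3 lower. These counts were 0 higher with quantile normalization, 0 and 0 with eBayes without trend, 0 and 1 with voom, 4 and 13 with the replicate block and 5 and 15 with voom and the block. Leaving out 1 library or mouse gave 0 higher and 0 to 1 lower without the block, and 0 to 6 and 1 to 23 with it. The cause of these changes was not tested, apart from the fewer libraries left.

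Over all genes the block called 1135 higher and 1060 lower, against 373 and 183. Among the genes named by the rule, signs turned only for SF3B1, SRSF2 and SRSF4, all near 0. Genes given above outside that rule were not followed in this way, and DDX39A among them turned as described. SF3B1 ranged from -0.0842 (without LSC replicate 3) to 0.22 and was -0.0532 without mouse 3 in both fits. SRSF2 was positive with quantile normalization (0.0914), scaled to reads outside the MTRNR2L rows (0.0478), with array weights (0.0004) and with voom and the block (0.0037). It ranged from -0.14 to 0.14 when a library or mouse was left out, with 0.0871 without mouse 1 and 0.0121 without mouse 3 under the block. SRSF4 ranged from -0.39 to 0.0762 when a library or mouse was left out, with 0.06 without bulk replicate 1, 0 without LSC replicate 2, and 0.0095 and 0.0762 without mice 1 and 2 under the block. The median of all genes lay between -0.05 and 0.05 under the scalings tried. LSM7 and SF3A2 had as few as 1 and 2 reads in a library.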
